A study of Mus musculus with 6 samples.

Results

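The insulin-like growth factor (IGF) family was followed at the transcript level in whole thoracic aortas of mice in which TGF-β receptors had been deleted in smooth muscle cells (SMCs). The set held 10 of the 52636 genes of the count table, namely the ligands Igf1 and Igf2, the receptors Igf1r and Igf2r, and the binding proteins Igfbp2, Igfbp3, Igfbp4, Igfbp5, Igfbp6 and Igfbp7. The genes were chosen by name as a family, with no threshold. Results of the same comparison were known by then, including the rise of Igf1 (adjusted p = 3.88e-26, DESeq2). Differences of the 10 genes between groups are therefore given as a description and not as independent evidence.

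RNA was sequenced from 6 aortas of mice 12 weeks of age. The 4 WT libraries came from untreated C57BL/6J mice. The 2 KO libraries came from Tgfbr1/2iSMCKO mice, which carry loxP-flanked Tgfbr1 and Tgfbr2, an mT/mG reporter and Myh11-CreERT2, and which at 11 weeks of age had been given 5 daily intraperitoneal injections of 2 mg tamoxifen. The Myh11 promoter restricts Cre to SMCs, and because the transgene lies on the Y chromosome the study used males. Other cells of the wall keep their receptors and were sequenced with the SMCs. The comparison asks which transcripts of the aortic wall differ soon after TGF-β signaling is lost in SMCs. Genotype, tamoxifen and breeding origin differed between the groups together and cannot be told apart. The paper lists the C57BL/6J mice as purchased and the compound mutants as bred to a B6 background. No batch is given in the labels, and nothing there ties a WT mouse to a KO mouse.

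IGF-1 and IGF-2 are secreted growth factors that signal through the tyrosine kinase receptor IGF-1R, whereas IGF-2R binds IGF-2 and delivers it to lysosomes. In tissue most IGF is held by secreted binding proteins, which can block the ligand, store it in the matrix or release it after cleavage by proteases. In arteries, IGF-1 is known as a survival and growth signal for SMCs, and both macrophages and fibroblasts can make it.

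Total estimated counts ran from 19650983 to 28860598 per library. Libraries are named by group and replicate (WT-1 to WT-4, KO-1 and KO-2), and the match of table columns to these names was inferred from the column codes. Counts over the whole of Tgfbr1 and Tgfbr2 overlapped between the groups, with log2 differences between KO and WT of 0.20 (adjusted p = 0.63, DESeq2) and -0.09 (adjusted p = 0.838). Because counts over a whole gene do not isolate the deleted exons and other cells of the wall express both receptors, they do not check the KO label. Each library labelled KO stood apart in cell type markers. In KO-2 the summed brown adipocyte markers were 19.5 times the WT mean, the red blood cell markers 22.5 times and the mesothelial markers 7.15 times, and mitochondrial genes took 11.7% of counts against 2.62% to 4.44% in WT. In KO-1 the cardiac muscle markers were 7.37 times the WT mean. The 8 SMC markers (Myh11, Acta2 and others) identified the tissue in every library. Their sum was 0.896 and 1.07 times the WT mean in KO-1 and KO-2, and none of the 8 passed the test. That sum joins markers that differed in direction. Myh11 and Des were above every WT library in both KO libraries, whereas Tagln, Cnn1 and Smtn were below. The libraries of the groups did not overlap in 5 of the 8, against 34.3% of all tested genes.

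All 10 genes were tested, within a DESeq2 fit of 17070 genes. Of the 10, 3 were called, that is, had an adjusted p under 0.05 and a fold change above 2, namely Igf1 and Igfbp3 (higher in KO) and Igfbp2 (lower). Over all tested genes 5.64% were called. With the adjusted p alone, 2 rose and 2 fell (Igfbp7 in addition), whereas 5.71% of all tested genes rose and 4.69% fell, or 10.4% in both directions. The libraries of the groups did not overlap in 6 of the 10, against 34.3% of all tested genes. The median log2 difference of the 10 was 0.15, and that of all tested genes was 0.01. In edgeR's quasi-likelihood test, Igf1 alone of the 10 was called, and 3.93% of all genes tested there were.

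**Figure D1:**
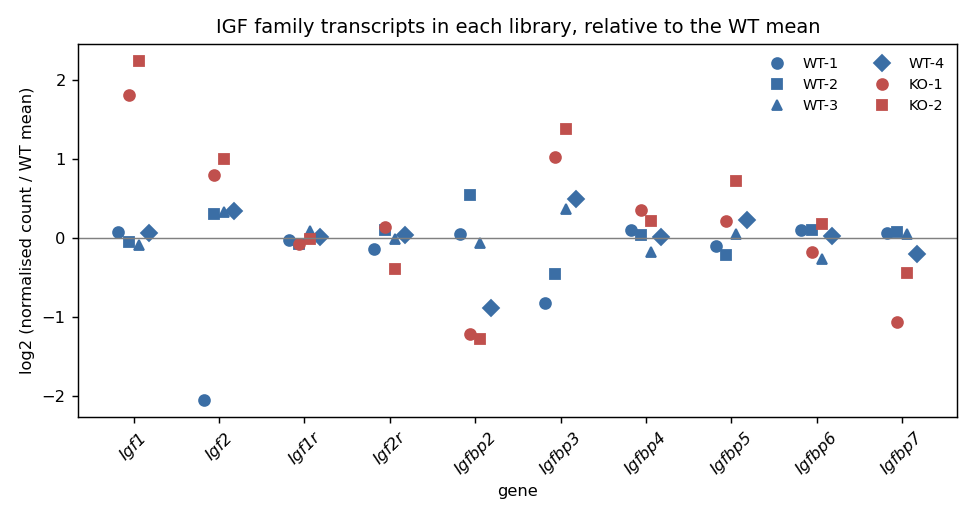
Each point is 1 library; the vertical axis gives log2 of its normalised count over the WT mean for the gene on the horizontal axis (blue, 4 WT libraries; red, 2 KO libraries). Igf1 lay 1.81 (KO-1) and 2.24 (KO-2) above the WT mean, Igfbp7 lay 1.06 and 0.44 below it, and the WT-1 library was low for Igf2.

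The starts of 3 genes are shown here because their transcripts passed the adjusted p in the DESeq2 fit and the 250 bases before their start hold no annotated exon. The windows come from the RefSeq promoter table (GRCm38.p6), 5′ to 3′ on the strand of the gene. They lie at chr1:72824230-72824479 on the plus strand (Igfbp2), chr11:7213924-7214173 on the minus strand (Igfbp3) and chr5:77408046-77408295 on the minus strand (Igfbp7). Capitals mark AGAC or its reverse complement GTCT, the core letters bound by Smad3 and Smad4, the transcription factors downstream of TGF-β receptors.
Igfbp2: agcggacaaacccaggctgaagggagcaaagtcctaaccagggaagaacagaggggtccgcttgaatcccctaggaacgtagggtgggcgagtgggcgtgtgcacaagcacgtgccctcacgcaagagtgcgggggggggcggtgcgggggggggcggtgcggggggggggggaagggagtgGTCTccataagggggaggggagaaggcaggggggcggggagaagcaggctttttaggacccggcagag
Igfbp3: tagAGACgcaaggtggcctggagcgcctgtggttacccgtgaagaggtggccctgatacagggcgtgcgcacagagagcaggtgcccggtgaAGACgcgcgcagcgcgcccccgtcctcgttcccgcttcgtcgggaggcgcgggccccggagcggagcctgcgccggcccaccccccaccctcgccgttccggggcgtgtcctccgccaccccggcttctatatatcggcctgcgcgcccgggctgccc
Igfbp7: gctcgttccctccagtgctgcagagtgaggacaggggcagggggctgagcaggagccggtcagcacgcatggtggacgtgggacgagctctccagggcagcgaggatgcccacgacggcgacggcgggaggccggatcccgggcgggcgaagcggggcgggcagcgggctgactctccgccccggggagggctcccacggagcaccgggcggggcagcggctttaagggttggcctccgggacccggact
The Igfbp2 window shown held 1 match, the Igfbp3 window 2 and the Igfbp7 window 0. A second Igfbp2 window (3 matches) and the Igf1 window (1 match) overlap an exon and are not shown. These letters are common, since 82.9% of the 32851 windows of that length in the table held at least 1, with a median of 2 per window. Of the 14 windows of the 10 genes, 12 held a match. The windows shown were rich in G and C, at 67.2% (Igfbp2), 73.2% (Igfbp3) and 74.0% (Igfbp7) against a median of 52.4% over all windows.

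Among the ligands, Igf1 rose about 4-fold. Igf1 (ENSMUSG00000020053.18, 10:87858265-87937042, plus strand, GRCm38) had normalised counts of 1677, 1531, 1497 and 1663 in the WT libraries in order, then 5568 in KO-1 and 7532 in KO-2. The WT libraries were close to each other at 1592 ± 91.5 (SD, n = 4), and both KO libraries stood well above them at 6550 ± 1389 (SD, n = 2). The log2 difference was 2.04 (SE 0.18, 4.11-fold, adjusted p = 3.88e-26 by DESeq2). It was 2.24 without KO-1 and 1.82 without KO-2, and in edgeR it was 2.02 (adjusted p = 0.00123). In whole tissue, a change in the number of cells of a type and a change in RNA per cell cannot be told apart.

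Igf2, the ligand best known for fetal growth, was listed at 99.96 in WT-1 but at 514.6, 524.3 and 527.3 in the other WT libraries, then at 723.9 and 835.8 in KO-1 and KO-2. The KO libraries were above every WT library, but 1 WT library was far below the others. The log2 difference was 0.90 (SE 0.73, adjusted p = 0.516, DESeq2), which did not pass. Without WT-1 it was 0.58 with an adjusted p of 0.0291, past the adjusted p but not the 2-fold threshold, so that a single WT library decided whether Igf2 passed the adjusted p. Igf2 (ENSMUSG00000048583.16, 7:142650766-142666816, minus strand) shares 3596 exonic bases on the same strand with Gm49394, a gene model with no entry in the count table. Igf2 also shares 98 bases with the antisense gene Igf2os, which held 0 to 11 counts per library.

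**Figure D2:**
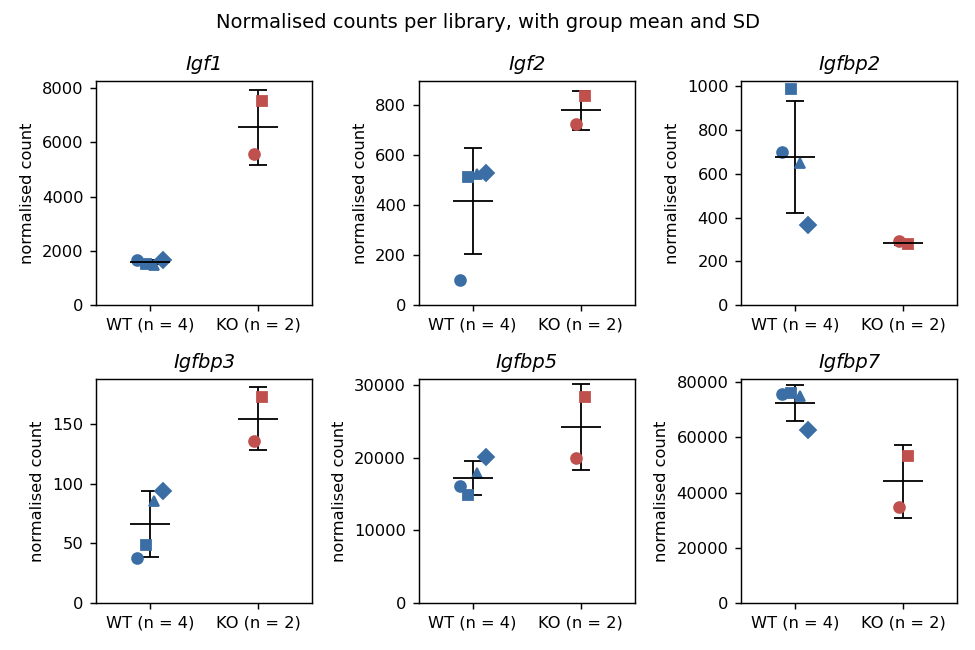
Normalised counts (vertical axes, each starting at 0) of Igf1, Igf2, Igfbp2, Igfbp3, Igfbp5 and Igfbp7 in each library, with horizontal lines at the mean and bars of 1 SD. The 2 KO points lay outside the WT points for each gene except Igfbp5, where KO-1 (20011) was within the WT range.

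Neither receptor passed the test. Igf1r, which encodes the signaling receptor (ENSMUSG00000005533.10, 7:67952827-68233668, plus strand), had normalised counts of 5593, 5363, 6015 and 5736 in WT and 5399 and 5627 in KO. The groups overlapped, and the log2 difference was -0.04, with a 95% interval of -0.33 to 0.25 (adjusted p = 0.912, DESeq2). A difference of any size within that interval remains compatible with these libraries. Igf2r, encoding the receptor that clears IGF-2 (ENSMUSG00000023830.13, 17:12682406-12769664, minus strand), had 2726, 3194, 2953 and 3082 in WT and 3301 and 2274 in KO. The KO libraries fell on opposite sides of the WT range, and the log2 difference was -0.10, with a 95% interval of -0.48 to 0.28 (adjusted p = 0.833). Per exon length, the level of Igf1r was 0.931 to 1.14 times that of Igf2r in WT, and 0.907 (KO-1) and 1.37 (KO-2) times in KO.

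The binding proteins did not move as one group. Of the 6, 1 rose (Igfbp3), 2 fell (Igfbp2 and Igfbp7) and 3 did not pass. Igfbp2, a binding protein with a preference for IGF-2 (ENSMUSG00000039323.18, 1:72824503-72852474, plus strand), had normalised counts of 700.8, 986.9, 647.1 and 365.5 in WT and 290.6 and 279.0 in KO. WT values were spread widely at 675.1 ± 255 (SD, n = 4), whereas the KO values were close to each other, and below WT-4, the lowest of WT. The log2 difference was -1.25 (SE 0.33, 2.37-fold lower, adjusted p = 0.00336, DESeq2). It was -1.27 without KO-1 (adjusted p = 0.0373) and -1.20 without KO-2, where the call was lost (adjusted p = 0.0823). In edgeR it did not pass (adjusted p = 0.08).

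Igfbp7 encodes a secreted protein of vessel walls that binds IGF only weakly. Its transcript (ENSMUSG00000036256.13, 5:77349240-77408041, minus strand) was, per exon length, the most abundant of the 10 in every library. It had 75589, 76236, 74895 and 62640 normalised counts in WT and 34753 and 53250 in KO. Both KO libraries were below all WT libraries, KO-1 further than KO-2. The log2 difference was -0.72 (SE 0.20, 1.64-fold lower, adjusted p = 0.00748, DESeq2), past the adjusted p but not the 2-fold threshold. Without KO-1 it was -0.44 and no longer passed (adjusted p = 0.0722). Without KO-2 it was -1.05, which then passed both thresholds (adjusted p = 4.26e-07). The edgeR test put the adjusted p at 0.0696. Igfbp7 shares 85 exonic bases with Polr2b on the opposite strand, which held 921 to 2065 estimated counts per library.

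Igfbp3, the main carrier of IGF in serum (ENSMUSG00000020427.11, 11:7206086-7213923, minus strand), was, per exon length, the scarcest of the 10 on average, with normalised counts of 37.3, 48.5, 85.9 and 94.0 in WT and 135.8 and 173.3 in KO. Both KO libraries exceeded every WT library. The log2 difference was 1.22 (SE 0.43, 2.32-fold, adjusted p = 0.0482, DESeq2). This call stood at the threshold and was lost in edgeR (adjusted p = 0.109) and with WT-1, WT-2, KO-1 or KO-2 left out, with adjusted p-values of 0.112, 0.171, 0.11 and 0.363.

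The other 3 binding proteins did not pass. Igfbp4, which inhibits IGF until the protease PAPP-A cleaves it (ENSMUSG00000017493.12, 11:99041244-99054392, plus strand), had 14487, 13876, 11873 and 13596 in WT and 17243 and 15562 in KO. Both KO values were above the WT range, but the log2 difference of 0.29 (95% interval -0.03 to 0.60) had an adjusted p of 0.281 in DESeq2. Igfbp5, which binds to extracellular matrix (ENSMUSG00000026185.8, 1:72857932-72874884, minus strand), had 16131, 14817, 17893 and 20177 in WT and 20011 and 28394 in KO. KO-1 was within the WT range and KO-2 above it, with a log2 difference of 0.49 (SE 0.20, adjusted p = 0.112). Left without KO-1, the difference was 0.72 and passed the adjusted p (0.00798) but not the 2-fold threshold. Igfbp6, a binding protein with high preference for IGF-2 (ENSMUSG00000023046.6, 15:102144362-102149511, plus strand), had 1262, 1273, 984.6 and 1206 in WT and 1047 and 1336 in KO. These groups overlapped, with a log2 difference of 0.01 (95% interval -0.38 to 0.40, adjusted p = 0.984).

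To compare levels between genes, counts were divided by the length of the union of exons and by the library total. The unit is CPM per kb, where CPM are counts scaled to a common library total. On this scale the WT aorta held far more binding protein transcript than ligand transcript. In WT, Igfbp7 stood at 2535 ± 218 CPM per kb (SD, n = 4), followed by Igfbp4 at 129 ± 11.4, Igfbp5 at 122 ± 16.6, Igfbp6 at 45.1 ± 5.51 and Igfbp2 at 15.5 ± 5.98. Below them came Igf1r at 14.3 ± 0.569, Igf2r at 13.6 ± 1.13, Igf1 at 6.81 ± 0.40, Igf2 at 3.10 ± 1.58 and Igfbp3 at 0.90 ± 0.376. The WT libraries overlapped between the neighbours Igfbp4 and Igfbp5, Igfbp2 and Igf1r, and Igf1r and Igf2r, and the order within each of these pairs differed from library to library. The ranges of Igf2 and Igfbp3 also overlapped, but Igf2 was above Igfbp3 within each of the 4 WT libraries. In the order of KO means, Igf1 moved from rank 8 to rank 5, at 25.7 and 31.5 CPM per kb, and Igfbp2 from rank 5 to rank 8, at 7.19 and 6.25. Igf1 was thus below the Igf1r level in every WT library and above it in both KO libraries.

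**Figure D3:**
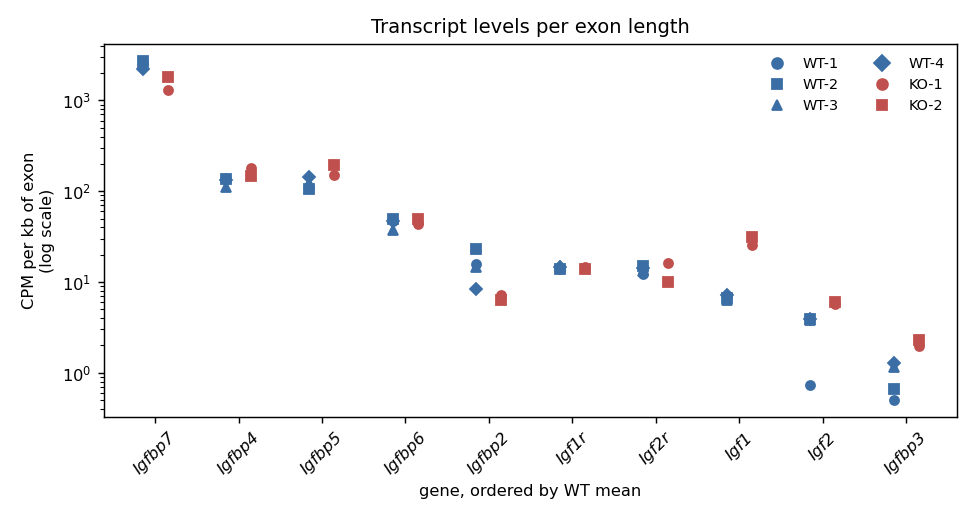
Transcript levels (CPM per kb of exon, log scale) of the 10 genes in each library, ordered from left to right by the WT mean. Igfbp7 was highest in all 6 libraries, and Igf1 was at 6.31 to 7.19 in WT and 25.7 and 31.5 in KO.

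Igf1 made up 90.7% of the summed ligand level in WT-1, where Igf2 was low, and 62.3% to 64.6% in the other WT libraries. It made up 81.6% and 83.9% in KO-1 and KO-2. The summed ligand level was 7.80 to 11.1 CPM per kb in WT and 31.4 and 37.5 in KO, while the summed level of the 6 binding proteins was 2551 to 3037 in WT and 1695 and 2223 in KO. The ligand level was accordingly 0.267% to 0.437% of the binding protein level in WT, and 1.86% and 1.69% in KO. The groups did not overlap in these sums or in their ratio, whereas for the Igf1 share WT-1 exceeded both KO libraries. The binding protein sum was mostly Igfbp7, which binds IGF only weakly, at 2219 to 2721 in WT and 1313 and 1823 in KO. Igfbp2 was also lower in both KO libraries than in any WT library. On this scale Igfbp3, Igfbp4 and Igfbp5 were higher in both, and Igfbp6 overlapped. The lower sum therefore describes Igfbp7 and not the binding proteins as a group. These are transcript levels, and no protein was measured.

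Among binding protein transcripts, the make-up of the pool differed between the groups. Igfbp7 accounted for 87.0% to 89.9% of the summed level per length in WT and for 77.4% and 82.0% in KO-1 and KO-2. Igfbp5 accounted for 3.51% to 5.64% in WT and 8.98% and 8.80% in KO, and Igfbp4 for 3.90% to 5.17% and then 10.5% and 6.56%. Each share depends on the others, so the larger shares of Igfbp4 and Igfbp5, which did not pass the test, are set beside a lower level of Igfbp7. The share of Igfbp6 was 1.29% to 1.82% in WT and 2.54% and 2.24% in KO, and that of Igfbp3 was at most 0.0504% in WT and 0.117% and 0.103% in KO. The share of Igfbp2 overlapped between the groups, at 0.332% to 0.759% in WT and 0.424% and 0.281% in KO.

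**Figure D4:**
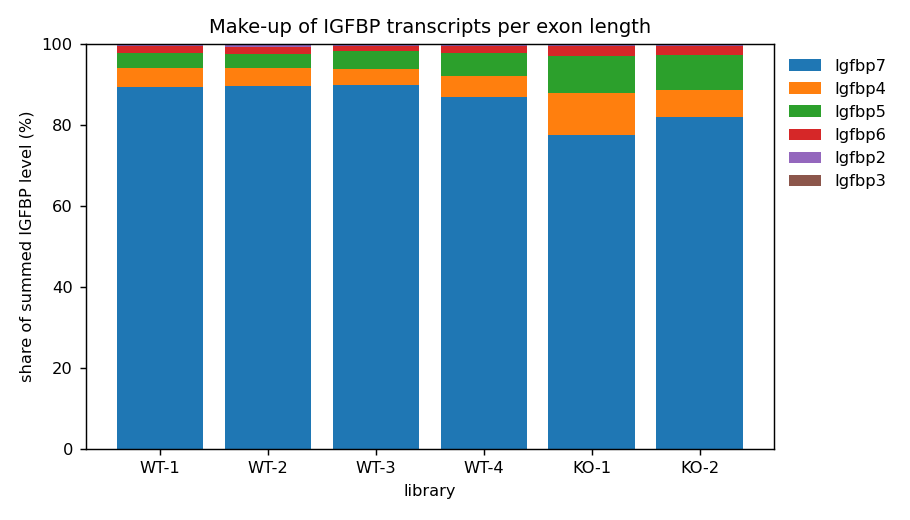
Stacked bars give the share (%) of each of 6 binding protein transcripts in their summed level per exon length, 1 bar per library. Igfbp7 fills 87.0% to 89.9% of the WT bars and 77.4% and 82.0% of the KO bars.

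A list of 34 other genes of the IGF axis was described in the same fit. Of these, 28 were tested, 3 rose, 2 fell and 23 did not pass, where 5.71% of all tested genes rose and 4.69% fell. The median log2 difference of the 28 was -0.06. The 5 that passed encode a binding protein protease or its inhibitor (Pappa, Stc1, Htra1) or proteins next to the receptor (Irs2, Pik3r1). Pappa, which encodes PAPP-A, the protease that frees IGF from IGFBP-4, had normalised counts of 35.1, 56.6, 57.9 and 72.0 in WT and 182.1 and 153.6 in KO. It was higher in both KO libraries than in any WT library, by 1.60 on the log2 scale (SE 0.38, adjusted p = 0.000658, DESeq2). Stc1, encoding stanniocalcin-1, an inhibitor of PAPP-A, was at 204.3, 205.7, 215.7 and 150.4 in WT and 531.1 and 689.6 in KO. The protease and its inhibitor thus both rose, Stc1 by 1.65 on the log2 scale (SE 0.25, adjusted p = 5.95e-09). Htra1, encoding a serine protease that cleaves IGF binding proteins, had 14389, 16909, 13979 and 13645 in WT and 8794 and 7427 in KO. It was lower in both KO libraries, with a log2 difference of -0.86 (SE 0.17, adjusted p = 2.22e-05).

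Next to the receptor, Irs2, which encodes an adaptor that couples the insulin and IGF-1 receptors to PI3-kinase, had 1817, 2067, 2245 and 3214 normalised counts in WT and 1021 and 1100 in KO. All WT libraries were above both KO libraries, with a log2 difference of -1.14 (SE 0.24, adjusted p = 8.51e-05, DESeq2). Pik3r1, which encodes the p85α regulatory subunit of PI3-kinase, had 2389, 2620, 2549 and 2730 in WT and 5039 and 4222 in KO. It rose by 0.85 on the log2 scale (SE 0.16, adjusted p = 1.14e-05). Related genes did not pass, namely Insr, the insulin receptor, at -0.23 (95% interval -0.55 to 0.09, adjusted p = 0.44), and Irs1, the sister adaptor of Irs2, at -0.25 (95% interval -0.66 to 0.15, adjusted p = 0.524). Igfbp1, the hepatic binding protein, had 0 counts in all 6 libraries, which allows up to 3 counts in each. Igfals, encoding the liver-derived acid-labile subunit of the serum IGF complex, was at 0, 4.49, 0 and 0 in WT and 9.86 and 8.60 in KO and got no adjusted p.

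Transcripts that FoxO factors, which insulin and IGF signaling holds in check, are known to induce were examined as a further list. Of 14, 1 rose, 1 fell and 12 did not pass, a share near the 10.4% of all tested genes that passed, and the median log2 difference was -0.07. Pdk4, a kinase that limits glucose oxidation, was at 476.7, 426.6, 480.3 and 543.0 in WT and 1088 and 3050 in KO. Its log2 difference was 2.10 (adjusted p = 1.75e-08, DESeq2), and KO-2 was far above KO-1. White adipocyte markers were likewise higher in KO-2, at 10.4 times the WT mean against 1.48 times in KO-1. Brown adipocyte markers were at 19.5 times in KO-2 and 1.55 times in KO-1. Cardiac muscle markers had the opposite order, at 1.11 times in KO-2 and 7.37 times in KO-1. The part of these cell types in the Pdk4 result was not tested. Cited2, a transcriptional coregulator, was at 1609, 885.5, 2006 and 1862 in WT and 969.7 and 650.2 in KO. It fell by 0.97 on the log2 scale (adjusted p = 0.0193), although WT-2 was below KO-1.

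Markers of several cell types other than SMCs were also higher in KO. All 9 macrophage markers were higher in KO, and their summed normalised count was 7444 to 8700 in WT and 13887 and 15810 in KO, or 1.71 and 1.95 times the WT mean. Igf1 rose more than that sum, from 19.1% to 20.1% of it in WT to 40.1% and 47.6% in KO. The 9 markers rose unevenly, from 1.47-fold (C1qc) to 2.66-fold (Mrc1). Among the defining macrophage genes, Adgre1 was at 180.1 to 265.2 in WT and at 591.9 and 382.3 in KO, and none of the 9 markers was at 0 in any library. Of the 8 fibroblast markers, 3 rose, with sums of 49573 to 55903 in WT and 70954 and 64642 in KO (1.36 and 1.24 times the WT mean). Igf1 went from 2.88% to 3.29% of their sum in WT to 7.85% and 11.7%. Relative to the sum of the SMC markers, which differed in direction, Igf1 was 0.144% to 0.188% in WT and 0.664% and 0.755% in KO. The part of these cells in the Igf1 result was not tested.

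Other lists also moved with the KO label, but unevenly between the KO libraries. Of 6 endothelial markers 4 rose, with sums of 11030 to 20191 in WT and 29272 and 28624 in KO-1 and KO-2. All 6 mesothelial markers rose, with sums of 228.1 to 451.4 in WT and 899.2 and 2460 in KO. Brown adipocyte markers (4 of 6 rose) summed to 488.7 to 703.0 in WT and 939.4 and 11849 in KO. Fat was thus marked in KO-2, and white adipocyte markers (3 of 6 rose), at 2547 to 4894 in WT and 5392 and 37810 in KO, showed the same order. Cardiac muscle markers (4 of 7 rose) had the opposite one, at 2946 to 4172 in WT, 27159 in KO-1 and 4087 in KO-2. The KO-2 sum joins markers that differed in direction. Tnnt2 (1975, against at most 849 in WT), Tnni3 (264, against 203) and Actc1 (270, against 223) were above every WT library. Ryr2 (1368, against at least 2291) was below, and Myh6, Nppa and Myl7 were within the WT range. Red blood cell markers (4 rose of 4 tested) summed to 859.3 to 5990 in WT and 11076 and 61684 in KO. Neither the lymphocyte markers (0 of 6 tested rose, sums 29.6 to 74.7 in WT and 85.7 and 355.2 in KO) nor the Schwann cell markers (0 of 5, sums 420.7 to 614.3 in WT and 759.5 and 701.9 in KO) passed. Among defining markers, Nppa was at 0 in WT-1, WT-2 and WT-3, Wt1 in WT-2, and Ucp1 and Cd3e in WT-4. Ucp1, which defines brown fat, was at 0 to 123.0 in WT, 40.2 in KO-1 and 6861 in KO-2. Myh6, which defines cardiac muscle, was at 78.1 to 538.8 in WT, 10313 in KO-1 and 113.1 in KO-2. Igfbp7 fell further in KO-1 than in KO-2. In KO-1 the cardiac sum was larger, and the mesothelial, adipocyte, red blood cell and lymphocyte sums were smaller. For Igf1, Igfbp2, Igfbp3, Igfbp7, Pappa, Stc1 and Irs2 the part of these cell types was not tested.

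**Figure D5:**
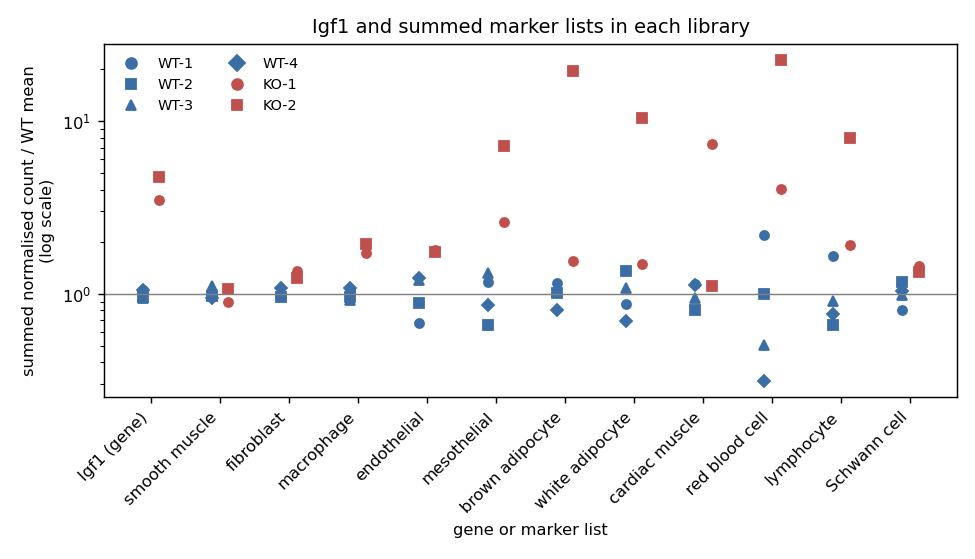
Normalised count of Igf1 and summed normalised counts of 11 marker lists in each library, divided by the WT mean (log scale; blue, WT; red, KO). Macrophage and endothelial sums were at 1.71 to 1.95 times the WT mean in both KO libraries, below Igf1, while adipocyte, red blood cell and lymphocyte sums were high mainly in KO-2 and the cardiac sum in KO-1.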

How the data were processed

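Thoracic aorta RNA of 4 WT and 2 KO mice was analysed. The authors trimmed reads with Trim Galore, aligned them to GRCm38 with HISAT2 and quantified genes with StringTie on GENCODE M15 models. Gene values were deposited as estimated counts, in whole numbers without scaling for depth, and used as they were. How coverage became counts, and whether strand was used, is not given in the sources used here, so overlapping genes can share reads. Table columns carry codes, which were matched to libraries by their numbering (0 columns were left over).

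DESeq2 1.42.0 in R 4.3.3 compared the groups (group as the only term, Benjamini-Hochberg adjustment over all tested genes, adjusted p under 0.05, and a fold above 2 for calls, as in the study). Normalised counts are counts over size factors, and single-library log2 values had a pseudocount of 0.5 added. Intervals at 95% come from the SE of the fit. With 2 KO libraries, p-values rest on the spread between few samples. edgeR 4.0.16 (quasi-likelihood), other scalings, a mean count minimum of 10, left-out libraries and a replicate block were alternatives. A KO group of 1 was assumed to vary like WT. Lengths, positions and symbols came from GENCODE M21, to which 52489 gene identifiers matched and 147 did not. Both fits were checked on simulated counts. The limit of 3 counts for a count of 0 covers counting error only.

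The 10 genes and all gene lists were chosen with earlier results of these data known. Genes were named by a rule: the 10, any gene of the IGF axis and FoxO lists past the adjusted p, Igfbp1, Igfals, Insr, Irs1 and Irs2, the targeted receptors, and defining markers of cell types. Protein sequences were not used here.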

Additional observations from a re-analysis of the deposited data

Results flagged for a closer look

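Of 32 values examined in the WT group (normalised counts of single genes and summed counts of cell type lists), 3 held a library far from the other 3. Chance alone gives about 1 in 20, or 1.6. Igf2 was at 99.96 in WT-1 against 514.6 to 527.3 in the other WT libraries. Igfbp7 was at 62640 in WT-4 against 74895 to 76236. Igfals was at 4.49 in WT-2 and at 0 in the others, a pattern that is flagged whatever the size of the single count. Igfbp1, at 0 in every WT library, was among the 32 but could not be flagged. The chance rate does not hold for these genes.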

How the results depend on the processing

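Over 12 alternatives for each of the 10 genes, 97 of the 120 values kept their direction and side of the threshold, 14 lost the threshold, 3 gained it and 6 changed sign. Igf1 kept its call throughout, with log2 differences of 1.82 to 2.24. In edgeR, with the filter for low counts or with none, 1 of the 10 genes was called and 1 passed the adjusted p, against 3 and 4 in DESeq2. With each library left out in turn, 2 to 3 were called, 2 to 4 passed, and 5 to 6 of the other IGF axis genes passed. Of values that did not pass, those that changed sign were Igf2r without KO-2 (0.15, against -0.39 without KO-1) and Igfbp6 in edgeR with the filter (-0.0064), without WT-3 (-0.07) and without KO-2 (-0.16, against 0.18 without KO-1). Without division by length, Igfbp7 made up 68.8% of binding protein counts in WT. Ranks of the 10 WT levels were the same with the longest transcript as length. The cause of these changes was not tested.

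The groups share replicate numbers, but nothing in the labels pairs the mice. Deviations of same-numbered libraries correlated at -0.087 (KO-1 and WT-1) and 0.014 (KO-2 and WT-2) over 15511 genes, which are not independent checks, since the deviations of 2 KO libraries mirror each other. With a replicate block, 3 of the 10 genes were called and 3 passed, namely Igf1, Igfbp2 and Igf2 (1.76, adjusted p = 0.0115). WT-3 and WT-4 had no KO library of the same number. The difference in that fit thus rested on WT-1, WT-2 and the KO libraries, and WT-1 was the library low for Igf2 (99.96). Igfbp3 (1.85, adjusted p = 0.0958) and Igfbp7 (-0.82, adjusted p = 0.062) no longer passed. The other IGF axis genes past the adjusted p went from 5 to 3 (Pappa and Irs2 were lost), and Igf1r (0.0092) and Igfbp6 (-0.10) changed sign.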
